A study of Mus musculus with 20 samples.

Results

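The chemokine Cxcl12 and its receptors Cxcr4 and Ackr3 (formerly Cxcr7) were followed in endothelial cells sorted from mouse ears. The 3 genes were taken by symbol, each from a probe set annotated with that symbol alone, out of 41345 probe sets, of which 23521 carried 1 symbol and 14886 passed the filter on dim signal. Each gene had 1 such probe set (17462149 for Cxcl12, 17226593 for Cxcr4 and 17215605 for Ackr3), and all 3 passed the filter. The sorted cells were CD31+CD45-Ter119- and were profiled on 20 arrays. The groups were 4 arrays from DNFB-treated ears of NICD1-EC-OE mice, 4 from their vehicle-treated ears, 6 from DNFB-treated ears of control mice and 6 from vehicle-treated ears of control mice. NICD1-EC-OE mice, called NICD mice here, overexpress a constitutively active Notch1 intracellular domain in endothelium after tamoxifen; their genotype label reads Pdgfb-CreERT2; R26-NICD, while the growth protocol names a CDH5-iCre driver. The control genotype is given only as control. Per the labels, all mice received 5 daily tamoxifen injections, DNFB (a contact-sensitising hapten) was painted on the skin to sensitise the mice and then applied to the ear as a challenge on day 5, with harvest 24 hours after it. Whether the mice with vehicle-treated ears were also sensitised is not stated in the labels, nor is the age, sex or pooling of animals, so p-values measure the spread between these arrays, which may be partly technical.

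Cxcl12 is a homeostatic chemokine made by stromal and endothelial cells and held on the vessel wall by heparan sulfate. Cxcr4 is its G-protein-coupled receptor, through which it drives migration of leukocytes and of sprouting endothelial cells. Ackr3 binds the same ligand without classical G-protein signalling, recruits arrestin and takes the chemokine up, so that it works as a scavenger.

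The promoters of the 3 genes are shown because the ligand and Cxcr4 fell together under DNFB while Ackr3 did not, in a study of Notch activity. Each sequence holds the 250 bases before the RefSeq transcription start (GRCm38.p6), written 5′ to 3′ on the gene's own strand. Capitals mark the core letters of the Notch partner RBPJ (TGGGAA) and of hypoxia-inducible factors (ACGTG or GCGTG), searched on both strands. The windows lie at chr6:117168285-117168534 on the plus strand for Cxcl12, chr1:128592300-128592549 on the minus strand for Cxcr4 and chr1:90203730-90203979 on the plus strand for Ackr3.
Cxcl12: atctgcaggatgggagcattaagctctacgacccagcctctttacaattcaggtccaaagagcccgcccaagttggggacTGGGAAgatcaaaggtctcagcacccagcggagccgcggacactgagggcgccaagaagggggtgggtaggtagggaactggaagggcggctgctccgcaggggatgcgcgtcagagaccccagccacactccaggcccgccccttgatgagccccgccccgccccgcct
Cxcr4: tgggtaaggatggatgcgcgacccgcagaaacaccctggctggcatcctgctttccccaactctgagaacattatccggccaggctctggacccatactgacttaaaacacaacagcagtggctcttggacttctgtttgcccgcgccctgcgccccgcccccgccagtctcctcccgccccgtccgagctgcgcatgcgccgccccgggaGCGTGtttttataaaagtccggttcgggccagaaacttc
Ackr3: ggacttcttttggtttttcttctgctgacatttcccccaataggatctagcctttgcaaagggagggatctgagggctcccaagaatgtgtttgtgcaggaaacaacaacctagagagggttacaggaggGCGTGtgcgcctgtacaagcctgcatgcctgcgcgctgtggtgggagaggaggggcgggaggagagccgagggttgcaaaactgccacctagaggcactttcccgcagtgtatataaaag
The RBPJ core occurred once in the Cxcl12 window, at bases -170 to -165 from the start, and in neither receptor window; 21.6% of 32526 promoter windows of this length held it. The hypoxia core occurred once in the Cxcr4 window, at -39 to -35, and once in the Ackr3 window, at -120 to -116, against 38.8% of all windows. Both receptors had TATAAA close to the start (12.3% of all windows), with overlapping matches on both strands at -32 to -25 in Cxcr4 and 1 match at -8 to -3 in Ackr3, and Cxcl12 had none. The GC box GGGCGG was found 5 times in the Cxcl12 window, 3 times in the Cxcr4 window and 1 time in the Ackr3 window, the last 2 Cxcl12 matches overlapping by 1 base (33.0% of all windows held it). No window held the AP-1 letters TGANTCA, found in 6.73% of all windows. A match describes letters only and was not tested as a binding site.

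Values are given on the log2 scale of the robust multi-array average (RMA), as the authors deposited them. Medians of the arrays lay between 3.52 and 3.62 in NICD mice and between 3.87 and 3.98 in control mice. The lowest value of an array was 1.18 to 1.305 in NICD mice and 0.41 to 0.59 in control mice. The 2 genotypes therefore also differ as sets of arrays, and which arrays were normalized together is not given. Xist, transcribed from the inactive X chromosome, was 8.47 to 9.07 on NICD arrays and 2.27 to 3.16 on control arrays, so sex cannot be told apart from genotype here. Notch1 (9.47 to 9.87 on NICD arrays and 9.52 to 10.02 on control arrays) is no check of the transgene, because it is not given here which exons the probe set reads. Comparisons of NICD with control mice are therefore given beside the value after each array was centred on its median; across all tested probe sets the median difference before centring was -0.27 in DNFB ears and -0.28 in vehicle ears. For one array, NICD vehicle replicate 4, the title says vehicle but the description says DNFB; it was kept under its title, and the deposited-scale results on the 3 genes that use it are given with and without it. The endothelial markers Pecam1 (11.37 to 11.79 over all arrays) and Cdh5 (11.60 to 12.10) were bright, but so was the keratinocyte marker Krt14 (10.60 to 12.27). As a gauge of background, 1108 olfactory receptor probe sets had group medians of 2.36 to 2.52, and 95% of them lay under 3.51 to 3.93, a value called the background percentile of the group here. All 20 values of each of the 3 genes lay above that range.

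The ligand Cxcl12 fell in DNFB ears of both genotypes. In NICD mice it was 7.15, 6.996, 6.9997 and 7.02 in DNFB ears (replicates 1 to 4), against 8.40, 8.11, 8.16 and 7.79 in vehicle ears. The groups did not overlap, and the lowest of the vehicle values was that of the array with the conflicting labels. The fall came to -1.07 ± 0.13 on the log2 scale (SE; 95% interval -1.35 to -0.80; adjusted p 2.27e-06 by limma with Benjamini-Hochberg adjustment over 14886 probe sets), 2.11-fold lower, and it was -1.18 without NICD vehicle replicate 4. In control mice Cxcl12 ran from 6.55 through a median of 6.74 to 7.08 in DNFB ears, against 8.12 through a median of 8.30 to 8.52 in vehicle ears, again with no overlap. That fall was -1.54 ± 0.11 (95% interval -1.77 to -1.31; adjusted p 6.70e-10), 2.91-fold lower. A larger fall was seen for 1.55% of all tested probe sets in control mice and for 4.66% in NICD mice. DNFB moved much of the array: 18.1% of probe sets passed downward in NICD mice and 23.6% in control mice, and groups separated without overlap downward in 17.4% and 13.2%.

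The receptor Cxcr4 fell as well. Its values in NICD mice were 8.04, 7.94, 7.49 and 7.72 in DNFB ears, against 9.35, 9.52, 9.12 and 9.62 in vehicle ears, with no overlap. The change was -1.60 ± 0.28 (95% interval -2.20 to -1.01; limma adjusted p 0.000134), 3.04-fold lower (-1.53, adjusted p 0.000731, without NICD vehicle replicate 4), and 1.51% of all tested probe sets fell by more. In control mice Cxcr4 ran from 7.14 through 7.64 to 8.07 in DNFB ears, against 7.81 through a median of 8.45 to 9.71 in vehicle ears. These groups overlapped, because control vehicle replicate 5 (7.81) lay inside the DNFB range, while control vehicle replicate 3 (9.71) stood highest of all 20 arrays. The change was -0.91 ± 0.23 (95% interval -1.39 to -0.42; adjusted p 0.00284) and -0.68 without replicate 3 of the vehicle group (adjusted p 0.00435). Cxcr4 was lower in the DNFB array of every same-numbered pair, with differences of -1.90 to -1.31 in NICD mice and -2.17 to -0.23 in control mice. The labels do not say that a number marks a shared animal.

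The scavenging receptor Ackr3 did not fall. In NICD mice it was 6.74, 6.52, 6.84 and 7.06 in DNFB ears, against 6.92, 6.65, 6.57 and 6.59 in vehicle ears, with both groups interleaved. The difference was 0.11 ± 0.22 (95% interval -0.34 to 0.56; limma adjusted p 0.742; 0.08 without NICD vehicle replicate 4), an interval that leaves room for a rise of the size seen in control mice. In control mice Ackr3 ran from 5.88 through 6.47 to 6.82 in DNFB ears, against 5.52 through a median of 5.79 to 6.38 in vehicle ears, with overlap. It rose by 0.49 ± 0.18 (95% interval 0.12 to 0.86; limma adjusted p 0.0268), among the 23.7% of probe sets that passed upward there (20% in NICD mice). All 6 same-numbered control pairs were higher under DNFB, by 0.18 to 0.87, and 2 of 4 NICD pairs were. Again, these numbers are not known to mark a shared animal. The call did not hold without DNFB replicates 1, 2 or 4 or vehicle replicates 3, 4 or 6 of the control mice (0.40 to 0.46, adjusted p 0.0528 to 0.0701), and when only the control groups were fitted (adjusted p 0.0598).

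**Figure D1:**
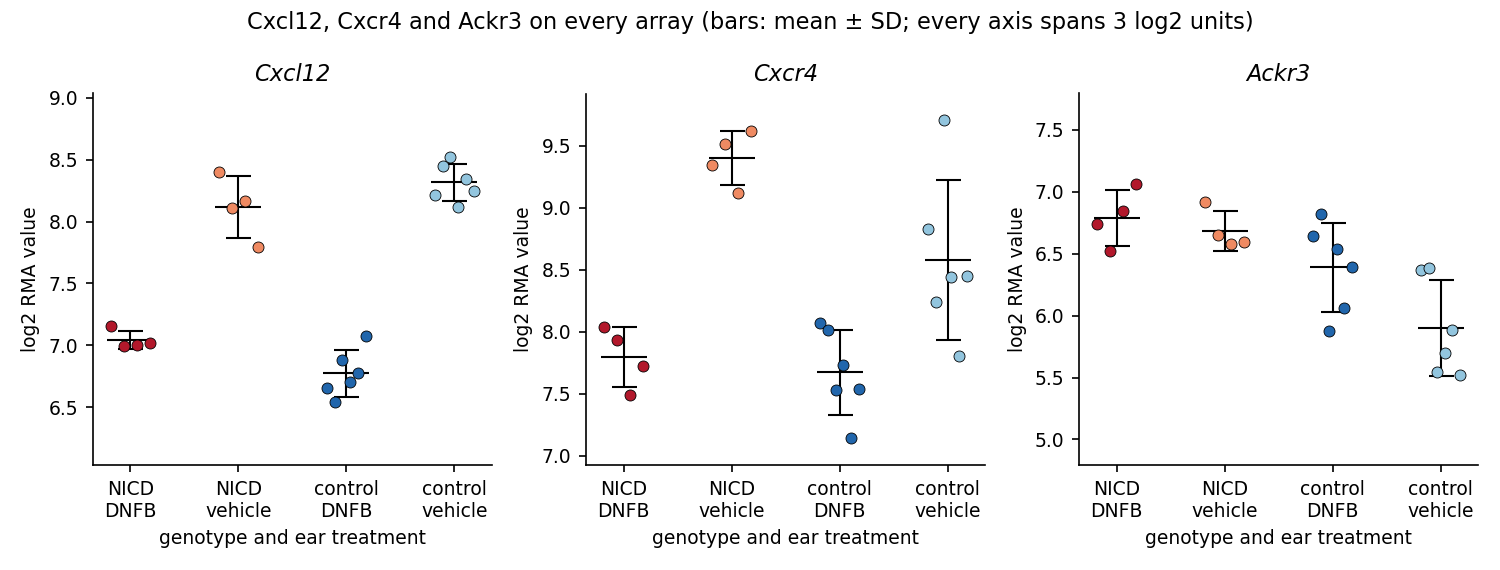
Log2 RMA values of Cxcl12, Cxcr4 and Ackr3 (vertical axes, each spanning 3 log2 units) on the 20 arrays, by genotype and ear treatment; points are arrays, bars the mean ± SD of 4 NICD or 6 control arrays. Cxcl12 and Cxcr4 are lower in DNFB ears of both genotypes, Cxcr4 is most spread in control vehicle ears (7.81 to 9.71), and Ackr3 is lowest in control vehicle ears.

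In vehicle ears both receptors were higher in NICD than in control mice, while the ligand did not pass the test. Ackr3 averaged 6.68 ± 0.16 in NICD and 5.90 ± 0.39 in control vehicle ears (SD, n = 4 and 6), and the groups did not overlap. It was higher by 0.78 ± 0.20 (95% interval 0.37 to 1.19; limma adjusted p 0.00481) and, relative to the array medians, by 1.11 ± 0.19 (adjusted p 0.000566). Without NICD vehicle replicate 4 it was higher by 0.81 (adjusted p 0.0101). Upward calls made up 2.88% of probe sets in that comparison and 11.9% after centring, downward calls 33% and 6.54%, and 1.83% of probe sets lay higher without overlap. Cxcr4 averaged 9.40 ± 0.22 in NICD and 8.58 ± 0.65 in control vehicle ears. It was higher by 0.82 ± 0.26 (95% interval 0.28 to 1.36; adjusted p 0.0189) and by 1.15 ± 0.26 after centring (adjusted p 0.00478), with overlap because of control vehicle replicate 3. The Cxcr4 call is lost without NICD vehicle replicate 4, the array with conflicting labels (0.75, adjusted p 0.0568). Cxcl12 averaged 8.12 ± 0.25 in NICD and 8.32 ± 0.15 in control vehicle ears. Its difference was -0.20 ± 0.12 (95% interval -0.45 to 0.06; adjusted p 0.208; -0.09 without NICD vehicle replicate 4), and 0.13 ± 0.13 after centring (adjusted p 0.533), so its sign depends on the scaling.

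In DNFB ears no member passed between the genotypes on the deposited scale. There Cxcl12 averaged 7.04 ± 0.07 in NICD and 6.78 ± 0.19 in control mice, a difference of 0.27 ± 0.12 (95% interval 0.01 to 0.52; limma adjusted p 0.0837). Ackr3 averaged 6.79 ± 0.23 in NICD and 6.39 ± 0.36 in control mice, a difference of 0.40 ± 0.20 (95% interval -0.01 to 0.81; adjusted p 0.108). Both passed after centring, at 0.64 ± 0.13 for Cxcl12 (adjusted p 0.00115) and 0.77 ± 0.19 for Ackr3 (adjusted p 0.00503) and also under quantile normalization and cyclic loess. Cxcr4 averaged 7.80 ± 0.24 in NICD and 7.67 ± 0.35 in control DNFB ears, with a difference of 0.12 ± 0.26 (95% interval -0.42 to 0.66; adjusted p 0.729), and 0.50 ± 0.26 after centring (adjusted p 0.163). In this comparison 5.45% of probe sets passed upward and 35.1% downward, against 20.7% and 8.12% after centring.

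The direct test of whether the DNFB effect differed between genotypes passed for none of the 3 genes. The effect in NICD minus that in control mice was 0.47 ± 0.17 for Cxcl12 (95% interval 0.11 to 0.82; limma adjusted p 0.337). It was -0.70 ± 0.37 for Cxcr4 (95% interval -1.46 to 0.07; adjusted p 0.525) and -0.38 ± 0.28 for Ackr3 (95% interval -0.96 to 0.20; adjusted p 0.658). Without NICD vehicle replicate 4 these were 0.36 for Cxcl12, -0.62 for Cxcr4 and -0.41 for Ackr3, and again none passed. Of all probe sets, 0.0134% passed that test.

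**Figure D2:**
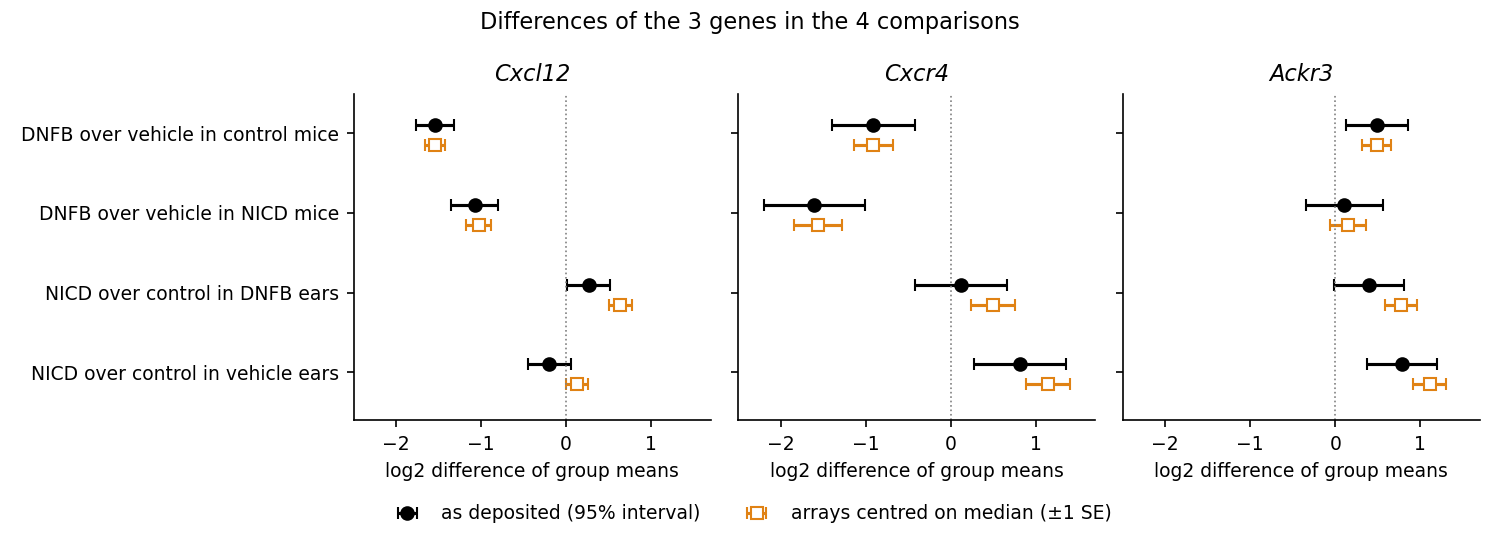
Log2 differences of group means (horizontal axes) for the 3 genes in 4 comparisons, as deposited with 95% intervals (filled circles) and with arrays centred on their medians with ± 1 SE (open squares). DNFB effects hardly move with centring, whereas every NICD over control difference shifts to the right.

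Ordered by deposited level, Cxcl12 was highest in the vehicle ears, at 8.12 in NICD and 8.32 in control mice, which overlapped and changed places after centring (4.53 above the array median in NICD and 4.40 in control vehicle ears), and NICD DNFB ears followed before control DNFB ears, which overlapped with each other. For Cxcr4 the order was NICD vehicle, control vehicle, NICD DNFB and control DNFB ears, with overlap between each pair of neighbours. For Ackr3 it was NICD DNFB, NICD vehicle, control DNFB and control vehicle ears, also with overlap between each pair of neighbours.

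Differences between 2 of the genes within an array do not move when a whole array is shifted, and they show unequal change rather than relative level. Neither they nor centring remove a shift that differs between probe sets. This limits the comparisons between genotypes, which differ as sets of arrays. Under DNFB, Cxcr4 fell relative to Ackr3 by -1.71 ± 0.25 in NICD mice (SE; exact two-sided permutation p 0.0286, the smallest that 4 against 4 arrays allow; adjusted over 12 tests 0.049). In control mice the same difference was -1.40 ± 0.36 (exact p 0.00217, the smallest that 6 against 6 allow; adjusted 0.013). Cxcl12 fell relative to Ackr3 by -1.18 ± 0.14 in NICD mice (exact p 0.0286, adjusted 0.049) and by -2.03 ± 0.26 in control mice (exact p 0.00217, adjusted 0.013). In NICD mice Cxcl12 minus Cxcr4 was 0.53 ± 0.23 (exact p 0.0286, adjusted 0.049), but 0.35 without NICD vehicle replicate 4, the array with conflicting labels (adjusted 0.107). Without that array Cxcr4 minus Ackr3 was -1.61 and Cxcl12 minus Ackr3 -1.26 in NICD mice (adjusted 0.0686 each, with 4 arrays against 3). In control mice Cxcl12 minus Cxcr4 was -0.63 ± 0.32 (exact p 0.0671, adjusted 0.101), and -0.82 without control vehicle replicate 3 (adjusted 0.0429).

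In vehicle ears Cxcl12 minus Ackr3 was lower in NICD than in control mice by -0.98 ± 0.19 (exact p 0.00952, adjusted 0.0381). Cxcl12 minus Cxcr4 was lower there by -1.02 ± 0.33 (exact p 0.0286, adjusted 0.049), whereas Cxcr4 minus Ackr3 did not differ detectably (0.04 ± 0.37, exact p 0.957). With 1 array left out the first of these passed in 5 of 10 cases and the second in 1 of 10. None of the 3 within-array differences under DNFB in NICD mice passed with 3 arrays against 4. Without NICD vehicle replicate 4 the vehicle differences were -0.90 for Cxcl12 minus Ackr3 (adjusted 0.0686), -0.84 for Cxcl12 minus Cxcr4 (adjusted 0.107) and -0.07 for Cxcr4 minus Ackr3. In DNFB ears none of the 3 within-array differences passed between the genotypes (exact p 0.191 to 0.605).

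**Figure D3:**
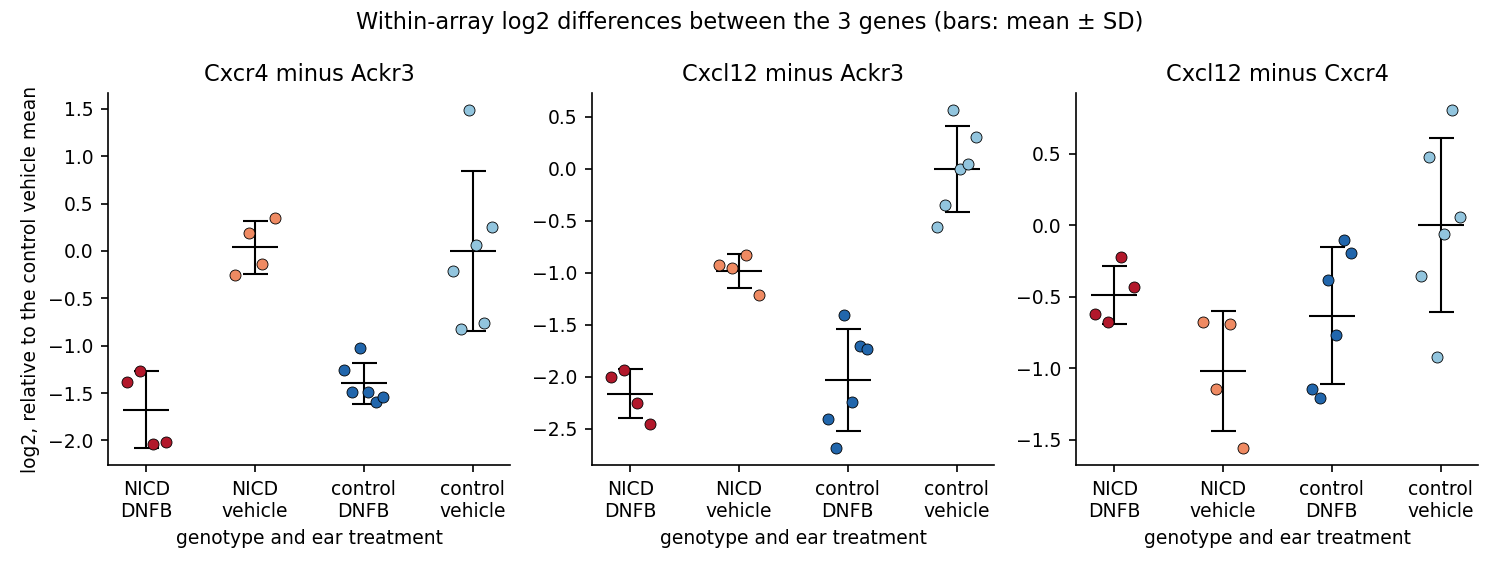
Within-array log2 differences for Cxcr4 minus Ackr3, Cxcl12 minus Ackr3 and Cxcl12 minus Cxcr4 (vertical axes, set to 0 at the mean of control vehicle ears), by genotype and treatment; points are arrays and bars mean ± SD. Relative to Ackr3, both Cxcr4 and Cxcl12 are lower in the DNFB arrays than in every vehicle array of the same genotype.

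Markers of other cells moved with these differences; fewer cells of a type and less RNA per cell cannot be told apart in sorted bulk samples. Beside the DNFB counts that follow, 20% of all probe sets passed upward and 18.1% downward in NICD mice, and 23.7% upward and 23.6% downward in control mice. Pericyte and smooth muscle cells, which can make Cxcl12, were represented by 9 of 9 listed markers, of which 7 fell under DNFB in NICD mice and 8 in control mice, and none rose. Their summed signal, as a log2 value, was 11.32 to 11.72 in DNFB and 12.29 to 12.69 in vehicle ears of NICD mice, and 11.67 to 12.48 in DNFB and 12.60 to 12.88 in vehicle ears of control mice. The defining marker Pdgfrb averaged 8.94 in DNFB and 9.79 in vehicle ears of NICD mice, and 9.43 in DNFB and 10.13 in vehicle ears of control mice. Of 8 capillary endothelial markers, 6 fell and 1 rose in NICD mice and 7 fell and 1 rose in control mice. Of 10 arterial markers, 4 fell and 2 rose in NICD mice and 8 fell in control mice, and of 6 venous markers 4 fell in NICD and 5 in control mice. Of 10 pan-endothelial markers, 4 fell and 2 rose in NICD mice and 7 fell in control mice, with summed signals of 13.73 to 13.90 in DNFB and 13.75 to 13.91 in vehicle ears of NICD mice, and 13.47 to 13.70 in DNFB and 13.76 to 13.99 in vehicle ears of control mice. Of 9 fibroblast markers, 2 were higher and 2 lower in NICD mice (2 and 0 after centring), close to the share of all probe sets, and 3 higher in control mice, with Pdgfra at 4.75 in DNFB and 3.88 in vehicle ears of NICD mice, and 6.36 in DNFB and 4.83 in vehicle ears of control mice. The part of these cells in the fall of Cxcl12 was not tested.

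Leukocytes also express Cxcr4. Of 6 tested lymphocyte and pan-leukocyte markers, 2 rose under DNFB in each genotype and none fell. Of all probe sets, 20% passed upward in NICD and 23.7% in control mice. The summed signal of the 8 measured (10 listed) was 6.62 to 7.37 in DNFB and 6.25 to 6.49 in vehicle ears of NICD mice, and 7.03 to 7.66 in DNFB and 6.42 to 7.16 in vehicle ears of control mice. Ptprc, which encodes the CD45 that the sort excluded, averaged 4.86 in DNFB and 3.30 in vehicle ears of NICD mice, and 5.00 in DNFB and 3.79 in vehicle ears of control mice, both vehicle values lying under the background percentile of their group. Of 8 tested macrophage and monocyte markers, 3 rose in NICD mice, and 4 rose and 1 fell in control mice (23.6% of all probe sets passed downward there). For neutrophils, 6 of 7 tested markers rose in NICD mice and 7 of 7 in control mice. A marker dim in vehicle ears could pass the filter only through DNFB arrays, so these counts and those of the leukocyte markers above favour rises. The granule protein gene S100a8 averaged 7.61 in DNFB and 3.25 in vehicle ears of NICD mice, and 8.19 in DNFB and 3.20 in vehicle ears of control mice, again with both vehicle values under the background percentile. The platelet chemokine Ppbp averaged 7.35 in DNFB and 4.19 in vehicle ears of NICD mice, and 8.63 in DNFB and 5.35 in vehicle ears of control mice. The part of these cells in the Cxcr4 and Ackr3 values was not tested.

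Lymphatic endothelial markers moved with Ackr3 between the genotypes. In vehicle ears 5 of the 6 measured (7 listed) were higher in NICD than in control mice (6 of 6 after centring), against 2.88% of all probe sets upward and 33% downward (11.9% and 6.54% after centring), among them Reln by 1.76 ± 0.27 (limma adjusted p 0.000106) and Lyve1, the hyaluronan receptor of lymphatic vessels, by 1.35 ± 0.24 (adjusted p 0.000403). The lymphatic regulator Prox1 was 0.47 ± 0.22 higher (adjusted p 0.101; 0.79 after centring, adjusted p 0.0173). Their summed signal was 11.19 to 12.60 in NICD and 9.88 to 10.88 in control vehicle ears, without overlap. In DNFB ears it was 11.66 to 12.42 in NICD and 10.97 to 11.52 in control mice. Of 10 arterial markers, 4 were higher and 1 lower in NICD vehicle ears (4 and 0 after centring), and of 8 tip cell markers (Cxcr4 left out) 3 were higher and 1 lower (3 and 0 after centring). Under DNFB, where Cxcr4 fell, 4 of the 8 tip cell markers rose and 1 fell in each genotype. Of all probe sets, 20% passed upward and 18.1% downward in NICD mice under DNFB, and 23.7% and 23.6% in control mice. The part of these cells in the receptor differences was not tested.

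Genes that act on or around the axis were counted in 8 lists with 81 entries, 69 of which were tested. Under DNFB 20 rose and 15 fell in NICD mice (50.7% called, against 38.1% of all probe sets), and 22 rose and 19 fell in control mice (59.4%, against 47.2%). The median change over these genes was 0.15 in NICD and 0.08 in control mice, and over all tested probe sets 0.01 and 0.00. None of the 69 passed the test of a different DNFB effect between genotypes.

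Of 5 other ligands of the receptors, 3 rose and 1 fell in NICD mice, and 3 rose and none fell in control mice. Cxcl11, an interferon-induced ligand of Ackr3 and Cxcr3, averaged 4.81 in DNFB and 3.44 in vehicle ears of NICD mice (limma adjusted p 0.00381), and 4.85 in DNFB and 3.41 in vehicle ears of control mice (adjusted p 0.000292). Both vehicle means lay under the 95th percentile of the olfactory receptor probe sets in their group, 3.52 and 3.93, so the fold is only a bound against that percentile, at least 2.44-fold in NICD and at least 1.90-fold in control mice. Such a gene could pass the filter only through the DNFB arrays, which favours rises. Adm, which encodes adrenomedullin, a vasoactive peptide that Ackr3 also binds, rose by 0.45 ± 0.17 in NICD and 0.62 ± 0.14 in control mice. Mif, a cytokine that can engage Cxcr4, rose by 0.82 ± 0.13 in NICD and 0.62 ± 0.11 in control mice. Hmgb1, a nuclear protein that forms a complex with Cxcl12, fell by 0.29 ± 0.11 in NICD mice (adjusted p 0.0406; 0.0798 after centring) and stood at -0.20 ± 0.09 in control mice (adjusted p 0.0669).

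Among proteases able to cut Cxcl12, 4 of 8 were bright enough to test. Mmp14 and Mmp9 rose in both genotypes, and Mmp2 and Cpm passed in neither. The membrane protease Mmp14 rose by 1.54 ± 0.16 in NICD mice (limma adjusted p 2.70e-07) and by 1.31 ± 0.13 in control mice (adjusted p 7.04e-08). Mmp9, a gelatinase also carried by neutrophils, rose by 1.11 ± 0.23 in NICD mice (adjusted p 0.000569). In control mice it averaged 5.02 in DNFB and 3.32 in vehicle ears, the vehicle mean lying under the background percentile, a rise of at least 2.13-fold (adjusted p 2.22e-07). Dpp4, the peptidase that inactivates Cxcl12 at its N terminus, stayed near background (group means 3.16 to 3.55) and did not pass the filter. Of 11 tested genes of heparan sulfate, which holds the chemokine on the cell surface, 4 rose and 1 fell in NICD mice and 4 rose and 4 fell in control mice. The core protein Sdc4 rose by 1.4955 ± 0.213 in NICD and 1.64 ± 0.17 in control mice, and the sulfotransferase gene Hs6st1 fell by 0.93 ± 0.14 in control mice (adjusted p 1.33e-05). In NICD mice Hs6st1 did not pass (-0.24 ± 0.17, limma adjusted p 0.307). Ndst2 fell in NICD mice, at -0.70 ± 0.14 (limma adjusted p 0.000351), and did not pass in control mice (-0.10 ± 0.11).

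Of 12 tested G protein, receptor kinase, arrestin and Rgs genes, 6 fell and 1 rose in each genotype. Arrb1, encoding an arrestin recruited by both receptors, fell by 0.80 ± 0.15 in NICD mice (limma adjusted p 0.000284) and by 1.04 ± 0.12 in control mice (adjusted p 8.66e-07). Rgs3 and Rgs16, which speed the switching-off of G proteins, fell by 0.76 ± 0.12 and 0.55 ± 0.13 in NICD mice and by 1.29 ± 0.10 and 0.71 ± 0.11 in control mice. Gnai3, a subunit of the inhibitory G protein, rose by 0.33 ± 0.11 in NICD and 0.49 ± 0.09 in control mice. Its relative Gnai1 fell, at -0.38 ± 0.15 in NICD and -0.33 ± 0.12 in control mice (limma adjusted p 0.0447 and 0.0305). After centring the NICD call of Gnai1 was lost (limma adjusted p 0.102). Gnai2 fell in control mice, at -0.36 ± 0.08, and did not pass in NICD mice (-0.03 ± 0.10). Rgs2 fell in NICD mice, at -0.52 ± 0.15, and did not pass in control mice (0.07 ± 0.12). Of 10 tested genes of Cxcr4 ubiquitination and trafficking, 3 rose in NICD mice and 6 rose and 1 fell in control mice. Vps4b, of the machinery that sorts receptors to the lysosome, and Stam2 rose by 0.72 ± 0.13 and 0.53 ± 0.09 in control mice. In NICD mice neither passed (0.15 ± 0.16 for Vps4b and 0.24 ± 0.12 for Stam2). Rab5a, a GTPase of early endosomes, rose by 0.54 ± 0.17 in NICD and 0.52 ± 0.14 in control mice. The ubiquitin ligase Itch fell by 0.40 ± 0.12 in control mice (adjusted p 0.0077), and its change in NICD mice was -0.26 ± 0.14 (adjusted p 0.16).

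The migration effectors gave 4 rises and 1 fall of 9 tested in NICD mice and 3 rises and 2 falls in control mice. Rac2, a GTPase of blood cells, rose by 2.00 ± 0.33 in NICD and 1.79 ± 0.27 in control mice, in the arrays in which Ptprc was also higher. Of 12 transcription factors and oxygen sensors, 6 fell and 1 rose in each genotype. Hif1a, the oxygen-regulated factor known to raise Cxcl12 and Cxcr4 transcription, rose by 0.76 ± 0.10 in NICD mice (limma adjusted p 7.04e-06) and by 0.75 ± 0.08 in control mice (adjusted p 3.48e-07). The flow-responsive factors Klf2 and Klf4 fell by 0.77 ± 0.21 and 0.78 ± 0.12 in NICD mice and by 0.95 ± 0.17 and 0.95 ± 0.10 in control mice. Egln3, a prolyl hydroxylase that marks Hif proteins for decay, fell by 1.34 ± 0.25 in NICD and 0.94 ± 0.20 in control mice. Of 6 other chemokine receptors tested, Cxcr2 and Ackr2 rose in both genotypes. Cxcr2, which is also on the neutrophil marker list, averaged 5.57 in DNFB and 3.41 in vehicle ears of NICD mice, and 5.86 in DNFB and 3.38 in vehicle ears of control mice. Its vehicle means lay under the background percentile, so the rises are bounds of at least 4.12-fold in NICD and at least 3.8-fold in control mice, and it too could pass the filter only through DNFB arrays. The CC chemokine scavenger Ackr2 rose by 1.56 ± 0.31 in NICD and 1.60 ± 0.25 in control mice, and it was higher in NICD than in control vehicle ears by 1.36 ± 0.28 (adjusted p 0.00114; 1.69 after centring).

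**Figure D4:**
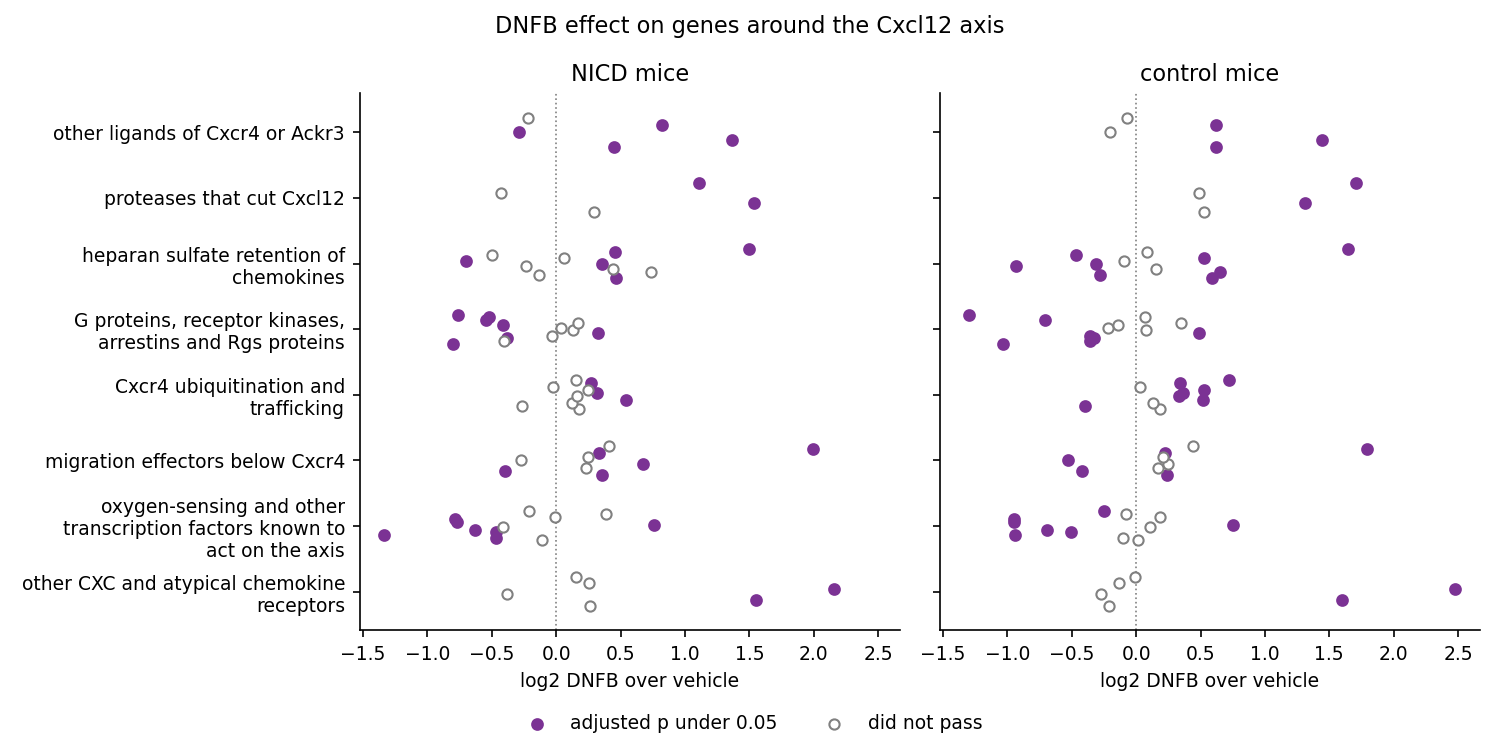
DNFB over vehicle (log2, horizontal axis) for the 69 tested genes in 8 lists around the Cxcl12 axis, in NICD mice (left) and control mice (right); filled points passed the threshold and open points did not. Ligand, protease and other receptor points that passed lie mostly to the right of 0, and those of G protein regulators and transcription factors mostly to the left.

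Between the genotypes in vehicle ears, 3 of the 69 genes were higher and 21 lower on the deposited scale (34.8% called, against 35.9% of all probe sets). In DNFB ears 8 were higher and 26 lower (49.3%, against 40.5%). After centring the balance turned round, with 17 higher and 5 lower in vehicle ears and 23 higher and 10 lower in DNFB ears. Over all probe sets the same turn was seen. In vehicle ears 2.88% passed upward and 33% downward before centring, and 11.9% and 6.54% after it. In DNFB ears these shares were 5.45% and 35.1% before, and 20.7% and 8.12% after. Rgs3 kept its direction: it was higher in NICD than in control mice by 0.46 ± 0.11 in vehicle ears (limma adjusted p 0.00338; 0.79 after centring) and by 1.00 ± 0.11 in DNFB ears (adjusted p 4.14e-06; 1.37 after centring). Rgs16 was lower by -0.94 ± 0.12 in vehicle ears (adjusted p 2.04e-05; -0.61 after centring). Vhl, which targets Hif proteins for decay, averaged 3.37 in NICD vehicle ears, under the background percentile there, and 4.72 in control vehicle ears, at least 2.29-fold lower on the deposited scale (adjusted p 3.03e-05; 0.000692 after centring).

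By correlation of centred values over the 20 arrays, among 12926 other genes, Cxcl12 was most like Itm2b (r 0.978), Tns2 (0.976), Nrp1 (0.974), Kank3 (0.974) and Fat4 (0.972). The arrays share 4 groups, and with group means removed the correlations were 0.41 to 0.70. Nrp1, a co-receptor for vascular endothelial growth factor, fell under DNFB by 1.18 in NICD and 1.78 in control mice. Cxcr4 was most like Arhgap5 (r 0.932), Hp1bp3 (0.921), the TGF-beta receptor gene Tgfbr2 (0.921), Hexdc (0.913) and Cdc42ep1 (0.910), with 0.58 to 0.83 once group means were removed. Tgfbr2 fell by 1.11 in NICD and 0.68 in control mice. Ackr3 was most like the inositol kinase gene Itpk1 (r 0.924), Igfbp3 (0.917), Olfr571 (0.895), Dpm1 (0.889) and the endothelial cadherin Cdh5 (0.879), with 0.45 to 0.73 within groups. The place of Cdh5 depended on centring: on deposited values it ranked 39, with r 0.670, while Itpk1, Igfbp3, Olfr571 and Dpm1 kept ranks 1 to 4. Olfr571 is an olfactory receptor gene, of the class used above as a gauge of background. Igfbp3, which encodes a binding protein for insulin-like growth factors, rose under DNFB by 0.76 in NICD and 1.04 in control mice and was 1.48 higher in NICD than in control vehicle ears (1.81 after centring, limma adjusted p 3.68e-07). Among themselves, Cxcl12 and Cxcr4 correlated at 0.744 over the 20 arrays and at -0.01 with group means removed. For Cxcr4 and Ackr3 these values were 0.20 and 0.01, and for Cxcl12 and Ackr3 -0.11 and -0.11.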

How the data were processed

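Endothelial cells sorted from ears were profiled on 20 arrays from 1 ng of amplified total RNA. The deposited log2 values, 1 per probe set, came from RMA run with Affymetrix Expression Console, per the submitters' processing notes; versions, options and which arrays were normalized together are not given in the sources used here. Groups came from the titles. Probe sets were named from the platform annotation: 23521 had 1 symbol, 1814 several and 16010 none, and those with several or none were left out. Kept for testing were single-symbol probe sets brighter than the array's own median on at least 4 arrays, 14886 of 14178 genes. A linear model with a mean for each group was fitted with limma 3.58.1 in R 4.3.3, with Benjamini-Hochberg adjustment and a threshold of 0.05; where a gene had several probe sets, that with the highest mean was used. Within-array differences were compared by exact permutation of arrays. The 3 genes, the lists and the rules for naming genes (up to 4 called members of a list with the largest change; the 5 most alike genes) were chosen with earlier results of these data known. Dpp4, Mmp2, Cpm, Gnai1, Gnai2, Reln, Lyve1 and Prox1 fall outside those rules and were picked with their values in view. The procedure was tested on simulated data. No array was identical to another, so n counts arrays; with no raw intensities, their number limits the precision.

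Alternatives were other filters, all probe sets, median centring, quantile and cyclic loess normalization, other variance models, array weights, only the groups compared, the replicate number as a block, and each array left out. Same-numbered DNFB and vehicle arrays were not taken as pairs, because the labels do not say that a number marks a shared animal and correlations of their deviations from the group means passed 0.1 in only 2 of 4 NICD and 3 of 6 control pairs. Figures were drawn with matplotlib 3.10.9. Promoter sequences are from RefSeq (3 of 3 genes matched), and the transcript forms that the probe sets cover are not given in the sources used here.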

Additional observations from a re-analysis of the deposited data

How the results depend on the processing

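Over 27 results on the 3 genes, 528 of 594 alternative values kept the direction and the side of the threshold. All falls of Cxcl12 and Cxcr4 under DNFB and the higher Ackr3 in NICD vehicle ears kept their call under every alternative run. Scaling decided the genotype comparisons of Cxcl12 and Ackr3 in DNFB ears: Cxcl12 passed at 0.64 after centring, 0.45 after quantile normalization and 0.42 after cyclic loess, and Ackr3 passed at 0.77, 0.61 and 0.65. Cxcr4 passed there neither as deposited nor after centring (limma adjusted p 0.729 and 0.163). In vehicle ears centring turned Cxcl12 to 0.13, and quantile normalization turned Cxcr4 minus Ackr3 to -0.0806. The Ackr3 rise in control mice, 0.49, was lost when only those groups were fitted.

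With 1 array left out, the Ackr3 rise in control mice ran between 0.40 and 0.59 (lost in 6 of 20 cases), Cxcr4 in NICD over control vehicle ears between 0.67 and 1.05 (lost in 1), and Cxcl12 in NICD over control DNFB ears between 0.22 and 0.33 (gained without control DNFB replicate 6). Cxcl12 minus Cxcr4 under DNFB ran between -0.82 and -0.47 in control mice and between 0.35 and 0.64 in NICD mice. In NICD mice Cxcr4 minus Ackr3 ran between -1.85 and -1.59 and Cxcl12 minus Ackr3 between -1.26 and -1.09. In vehicle ears, NICD over control, Cxcr4 minus Ackr3 ran between -0.13 and 0.33 and changed sign in 5 of 10 cases (-0.005, -0.127, -0.114, -0.013 and -0.066). There Cxcl12 minus Cxcr4 ran between -1.20 and -0.84 and Cxcl12 minus Ackr3 between -1.09 and -0.87.

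DNFB and vehicle arrays of a genotype share only replicate numbers. Deviations of same-numbered arrays from their group means correlated at 0.0515 to 0.227 in NICD mice (3 of 4 DNFB arrays best with their own number) and 0.0418 to 0.269 in control mice (4 of 6). A replicate block, fixed or random, changed no call on a gene. A sign-flip test over same-numbered arrays has a smallest p of 0.125 with 4 pairs and 0.0313 with 6. Adjusted over both genotypes together, no result could pass whatever the values, so this test cannot decide. For Cxcr4 minus Ackr3 it gave -1.71 (adjusted exact p 0.125) in NICD and -1.40 (0.0938) in control mice. For Cxcl12 minus Ackr3 it gave -1.18 (0.125) in NICD and -2.03 (0.0938) in control mice. For Cxcl12 minus Cxcr4 it gave 0.53 (0.125) in NICD and -0.63 (0.125) in control mice. Of 1840 alternative values of the list counts, 123 moved by over 1.5 times. The causes of these shifts were not tested, and with no raw intensities the signal over background is unknown.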
